A study of Mus musculus with 6 samples.

Results

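Osteoclasts resorb bone and calcified cartilage, and 10 genes that mark them or control their formation were followed in growth plates that expressed a mutant Idh1. The genes were taken by symbol from a fixed list, and all 10 were found among the 46078 genes counted in each library. Bulk RNA sequencing was done on the knee-side growth plates (lower femur, upper tibia) of mouse embryos at E18.5, with 3 control and 3 Idh1 mutant libraries. The mutants carried Col2a1-Cre and Idh1 LSL/+, in which a lox-stop-lox cassette keeps the mutant allele silent until Cre removes it, and the controls carried the same Idh1 LSL/+ allele without Cre. The Cre transgene therefore cannot be told apart from the mutant Idh1 in this comparison. Col2a1 regulatory elements drive Cre in cells of the cartilage lineage, to which osteoclasts, which come from blood precursors, do not belong. The labels give each library as a separate replicate and do not name litters, and they also carry a note on animals aged 2 months that does not match the embryonic age. The library titles do not say how many embryos a library holds, and below each library is spoken of as an animal.

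Osteoclasts form when monocyte precursors receive macrophage colony-stimulating factor through its receptor, encoded by Csf1r, and RANK ligand, encoded by Tnfsf11. RANK ligand binds its receptor RANK (Tnfrsf11a), and the secreted decoy receptor osteoprotegerin (Tnfrsf11b) takes the ligand away. Co-stimulatory receptors such as Oscar add a calcium signal, the precursors fuse through Dcstamp, Ocstamp and Atp6v0d2, and the mature cell secretes acid, the phosphatase Acp5 and the collagen-degrading protease Ctsk. At the growth plate these cells are known to remove hypertrophic cartilage at the border with the marrow.

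None of the 10 genes differed between mutant and control growth plates past an adjusted p of 0.05 (quasi-likelihood test of edgeR, Benjamini-Hochberg adjusted over 16813 genes), in a comparison in which 0.190% of all genes tested did. What varied was the level between animals of one genotype. Oscar, Dcstamp, Ocstamp, Atp6v0d2 and Acp5 were highest in control 1 and mutant 2, by 4.55 to 14.1 times over the lowest library. The ligand, its decoy and the receptors RANK and Csf1r varied by at most 1.73 times. Of the 10 genes, 8 had a fold change above 0 and 2 below, and the median log2 fold change was 0.20 against -0.0026 over all genes tested. At an unadjusted p under 0.05 there was 1 of the 10, Csf1r, beside 8.64% of all genes. DESeq2 called 0 of the 10 (2 at an unadjusted p under 0.05, Csf1r and Ctsk), beside 1.15% of all genes called and 7.35% at that p. By limma-voom 0 were called (1 at an unadjusted p under 0.05), beside 0.113% and 8.49% of all genes.

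The libraries held 23445687 to 30415773 counted reads. At this depth 3 counts, taken as the smallest level that could be seen, came to 0.0978 to 0.127 CPM (counts per 1e6 reads, scaled with edgeR's TMM factors), a limit that covers counting error only. The chondrocyte markers Col2a1, Acan and Sox9 were present in every library, and 8 chondrocyte genes together came to 3362 to 7353 CPM. Osteoblast genes, led by Col1a1 and Ibsp, came to 34090 to 48157 CPM and muscle genes, led by Myh8 and Acta1, to 13757 to 21357 CPM, so that the pieces held other tissues beside cartilage. Mutant 3 was the only library with Xist, at 907 CPM against at most 0.469 CPM elsewhere. In bulk RNA fewer cells of a type and less RNA per cell cannot be told apart.

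Tnfsf11 (ENSMUSG00000022015, chromosome 14 from 78277445 to 78308043 of GRCm38, reverse strand) encodes RANK ligand, the signal for osteoclast formation. Its level was 5.0, 3.75 and 5.45 CPM in controls 1, 2 and 3 and 5.08, 6.01 and 5.19 CPM in mutants 1, 2 and 3. The groups overlapped, with control 2 the lowest and mutant 2 the highest of all libraries. The log2 fold change was 0.20 (standard error 0.18, 95% interval -0.21 to 0.61, adjusted p = 0.835 from edgeR).

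Tnfrsf11b (ENSMUSG00000063727, chromosome 15 from 54250619 to 54278484, reverse strand) encodes osteoprotegerin, which blocks RANK ligand. It had 13.3, 11.5 and 10 CPM in control animals and 11.5, 15.2 and 17.3 CPM in mutant animals. Mutants 2 and 3 lay above every control, while mutant 1 lay within the control range. On the log2 scale the fold change was 0.34 (standard error 0.17, 95% interval -0.030 to 0.71, adjusted p = 0.629 from edgeR).

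The ratio of ligand to decoy was formed within each library from counts per kilobase of exon, and does not depend on library scaling. It was 0.475, 0.409 and 0.687 in control animals and 0.558, 0.497 and 0.378 in mutant animals. Every library held less Tnfsf11 than Tnfrsf11b by this measure, and the groups overlapped, with control 3 the highest and mutant 3 the lowest. The mean log2 ratio was -0.97 ± 0.38 (SD, n = 3) in control animals and -1.08 ± 0.29 (SD, n = 3) in mutant animals, a difference of -0.12 that was smaller than the spread within either group. Its sign changed when control 3 was left out (0.097) and when mutant 3 was left out (0.043).

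**Figure D1:**
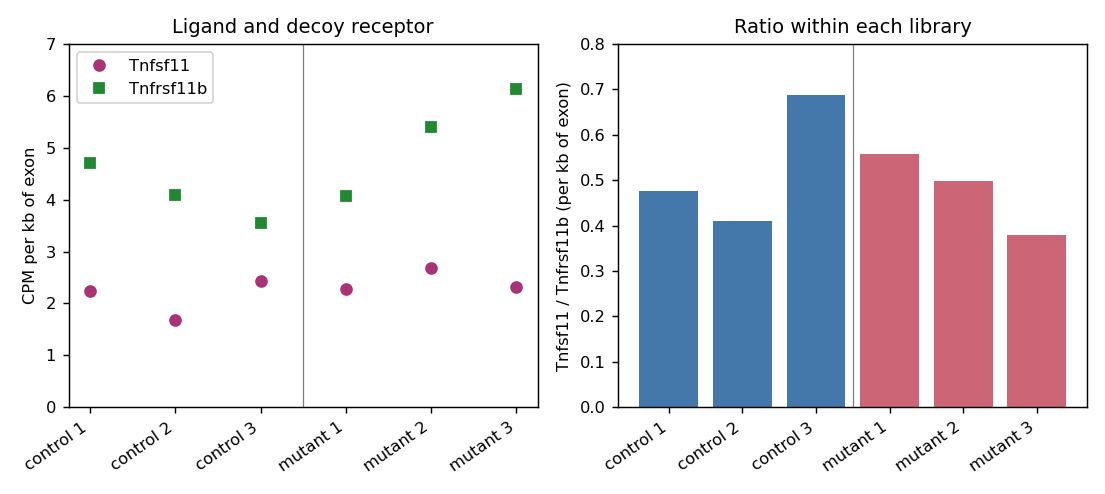
Left, Tnfsf11 (circles) and Tnfrsf11b (squares) in CPM per kb of exon in each library; right, the ratio of the 2 within each library, with controls in blue and mutants in red. Tnfrsf11b lies above Tnfsf11 in all 6 libraries, and the ratios of the genotypes overlap between 0.378 and 0.687.

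Csf1r (ENSMUSG00000024621, chromosome 18, forward strand) encodes the receptor that monocytes, macrophages and osteoclast precursors all need. It had 82.5, 73.8 and 79.7 CPM in control animals and 83.4, 95.6 and 100.1 CPM in mutant animals. Every mutant lay above every control, by less than 1 CPM between mutant 1 and control 1 (two-sided p = 0.1 by exact permutation, the lowest value possible with 3 against 3), and 6.83% of all genes tested were separated in this direction and 7.62% in the other. Its log2 fold change was 0.24 (standard error 0.09, 95% interval 0.040 to 0.44), with an unadjusted p of 0.0236 and an adjusted p of 0.487 from edgeR. Csf1r shares exon sequence with Hmgxb3 on the opposite strand, at 26.3 to 32.9 CPM, and the counting ignored strand, so that reads in the shared stretch cannot be assigned. It was the only one of the 10 genes without overlap between the groups.

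Tnfrsf11a (ENSMUSG00000026321, chromosome 1 from 105780718 to 105847981, forward strand) encodes RANK, which precursors and osteoclasts carry. It had 8.20, 5.54 and 7.33 CPM in control animals and 5.72, 7.79 and 8.43 CPM in mutant animals. The 2 ranges were nearly the same, and the log2 fold change was 0.06 (standard error 0.20, 95% interval -0.38 to 0.50, adjusted p = 0.963 from edgeR).

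Oscar, an immunoglobulin-like co-stimulatory receptor of osteoclasts, opened the group that varied most. Control 1 and mutant 2 were the 2 highest libraries for Oscar and Acp5 but not for Ctsk. The 250 bases before the annotated start of these 3 genes are therefore given here. They are RefSeq windows on GRCm38.p6, written in the direction of the gene, and capitals mark matches on either strand to GGAAA (the core bound by NFAT factors), GAGGAA (the core bound by PU.1), TGANTCA (AP-1) and the E-boxes CATGTG and CACGTG. Oscar lies at chr7:3616158-3616407 on the reverse strand, the innermost of the 3 listed Acp5 starts at chr9:22130599-22130848 on the reverse strand, and Ctsk at chr3:95498960-95499209 on the forward strand.
Oscar: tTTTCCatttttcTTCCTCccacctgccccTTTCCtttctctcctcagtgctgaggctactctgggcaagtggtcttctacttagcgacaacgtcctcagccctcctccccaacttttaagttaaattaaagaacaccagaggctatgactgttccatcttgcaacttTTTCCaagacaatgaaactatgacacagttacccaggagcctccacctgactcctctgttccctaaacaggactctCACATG
Acp5: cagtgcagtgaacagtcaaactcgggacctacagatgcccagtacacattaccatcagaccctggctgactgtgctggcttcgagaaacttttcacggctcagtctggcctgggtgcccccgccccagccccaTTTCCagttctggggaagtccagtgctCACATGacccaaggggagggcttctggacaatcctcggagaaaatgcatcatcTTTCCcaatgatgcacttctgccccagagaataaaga
Ctsk: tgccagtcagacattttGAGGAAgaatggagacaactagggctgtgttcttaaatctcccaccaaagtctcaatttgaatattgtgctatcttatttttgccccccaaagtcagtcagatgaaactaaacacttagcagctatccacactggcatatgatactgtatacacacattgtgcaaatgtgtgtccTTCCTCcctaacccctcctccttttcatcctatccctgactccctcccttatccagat
The Oscar window held GGAAA at 3 places, GAGGAA at 1 and CATGTG at 1, and this Acp5 window held GGAAA at 2 places and CATGTG at 1. The Ctsk window held GAGGAA at 2 places and no GGAAA. Of 32851 windows of the same length, 55.6% held GGAAA, 23.3% GAGGAA, 12.3% CATGTG, 6.75% TGANTCA and 6.02% CACGTG, so that each match is a description and GGAAA is common. No bases belonged to more than 1 motif in these windows. Windows were matched for 5 of the 10 genes, the others being Tnfsf11 (GGAAA at 1 place) and Tnfrsf11a (no match). The outer 2 Acp5 starts held GGAAA at 1 place each and no CATGTG, so the CATGTG match depends on the start printed. A part of these motifs in the shared order of the libraries was not tested. Tnfrsf11b, Dcstamp, Ocstamp and Atp6v0d2 had no entry. No window was matched for Csf1r, and windows on its chromosome, 18, were left out of the matching.

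Oscar (ENSMUSG00000054594, chromosome 7 from 3609813 to 3616157, reverse strand) had 57, 7 and 15 counts in control animals and 11, 52 and 18 counts in mutant animals. These came to 2.02, 0.228 and 0.542 CPM and to 0.466, 2.11 and 0.619 CPM. One animal of each genotype stood high and the rest stayed under 0.7 CPM. The log2 fold change of 0.20 had a standard error of 0.76 (95% interval -1.50 to 1.89, adjusted p = 0.969 from edgeR).

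Dcstamp (ENSMUSG00000022303, chromosome 15 from 39745932 to 39760934, forward strand), a membrane protein needed for the fusion of precursors, had 57, 14 and 4 counts in control animals and 7, 50 and 34 in mutant animals. Its levels were 2.02, 0.456 and 0.144 CPM and 0.296, 2.03 and 1.17 CPM. Control 1 and mutant 2 were again high, and mutant 3 lay between them and the others. The log2 fold change was 0.42 (standard error 0.81, 95% interval -1.39 to 2.24, adjusted p = 0.937 from edgeR).

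Ocstamp (ENSMUSG00000027670, chromosome 2 from 165393760 to 165400405, reverse strand), a related fusion protein, had 102, 15 and 34 counts in control animals and 14, 69 and 44 in mutant animals. Its levels were 3.62, 0.489 and 1.23 CPM and 0.593, 2.80 and 1.51 CPM. On the log2 scale the fold change was -0.11 (standard error 0.68, 95% interval -1.62 to 1.40, adjusted p = 0.983 from edgeR).

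Atp6v0d2 (ENSMUSG00000028238, chromosome 4 from 19876841 to 19922605, reverse strand), an osteoclast subunit of the proton pump with a part in fusion, had 5.96, 2.44 and 1.88 CPM in control animals and 1.35, 6.17 and 3.71 CPM in mutant animals. The order of the libraries was close to that of Dcstamp, with mutant 1 and control 3 at the bottom of both. Its log2 fold change was 0.13 (standard error 0.53, 95% interval -1.05 to 1.31, adjusted p = 0.970 from edgeR).

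Acp5 (ENSMUSG00000001348, chromosome 9 from 22126731 to 22135746, reverse strand) encodes tartrate-resistant acid phosphatase, the enzyme stained to count osteoclasts. It had 1613, 561 and 365 counts in control animals and 463, 1803 and 1030 in mutant animals, or 57.2, 18.3 and 13.2 CPM and 19.6, 73.2 and 35.4 CPM. With at least 365 counts in each library, the spread of Acp5 was not one of low counts. The log2 fold change was 0.53 (standard error 0.55, 95% interval -0.71 to 1.77, adjusted p = 0.861 from edgeR). An exon of Acp5 overlaps an annotated gene on the opposite strand, 6530413G14Rik, and counts in the shared stretch are uncertain.

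Ctsk (ENSMUSG00000028111, chromosome 3 from 95499256 to 95509362, forward strand), which encodes cathepsin K, did not follow this order. It had 227, 233 and 185 CPM in control animals and 128, 218 and 157 CPM in mutant animals. Mutants 1 and 3 lay below every control, and mutant 2 lay within the control range. On the log2 scale the fold change was -0.36 (standard error 0.17, 95% interval -0.75 to 0.032, adjusted p = 0.629 from edgeR). The unadjusted p was 0.0677 from edgeR and 0.0301 from DESeq2, where the adjusted p was 0.534. Control 2, among the lowest libraries for Acp5 and Oscar, was the highest for Ctsk. Among the mutants, Ctsk kept the order of Acp5, with mutant 2 the highest and mutant 1 the lowest.

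**Figure D2:**
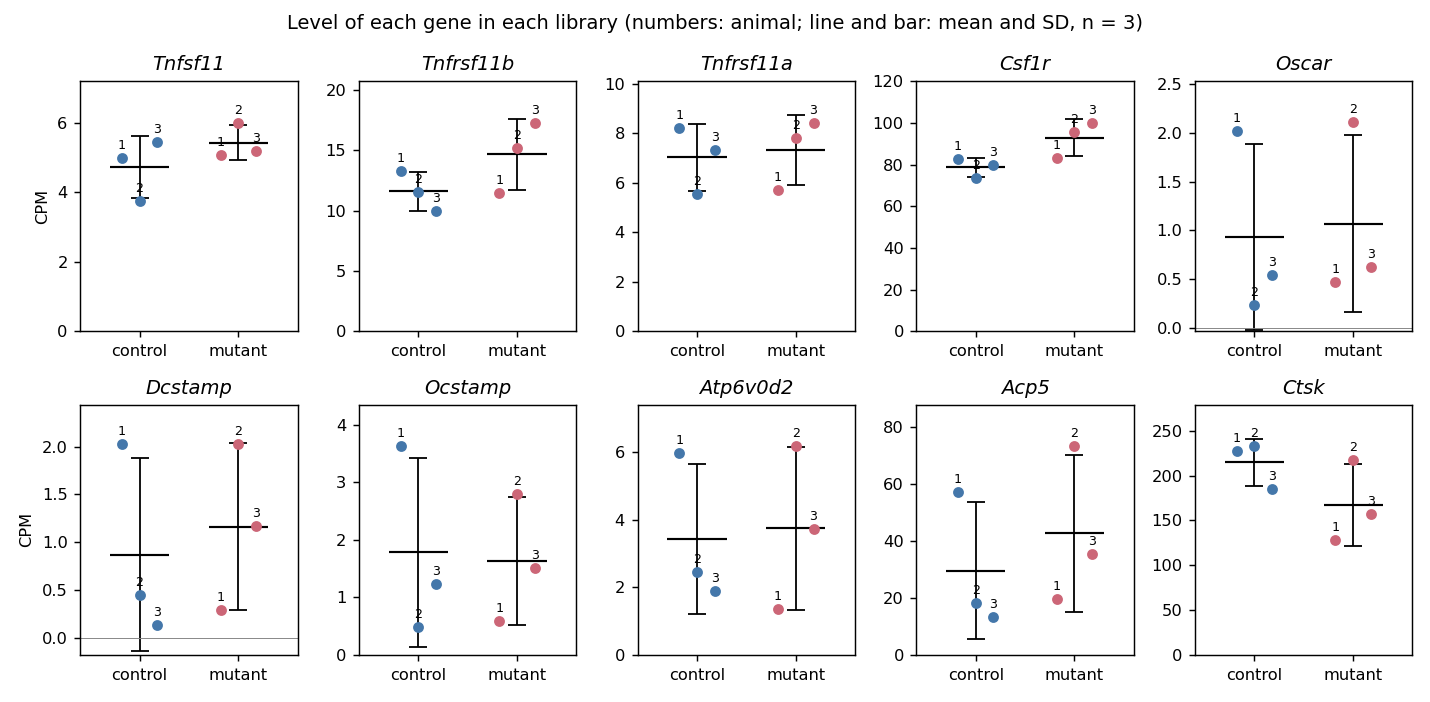
Level of each gene in CPM in every library, with controls in blue, mutants in red and the animal's number beside each point; lines and bars give the mean and SD (n = 3). Control 1 and mutant 2 are the 2 highest libraries for Oscar, Dcstamp, Ocstamp, Atp6v0d2 and Acp5, while Csf1r is the gene whose groups do not overlap.

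**Figure D3:**
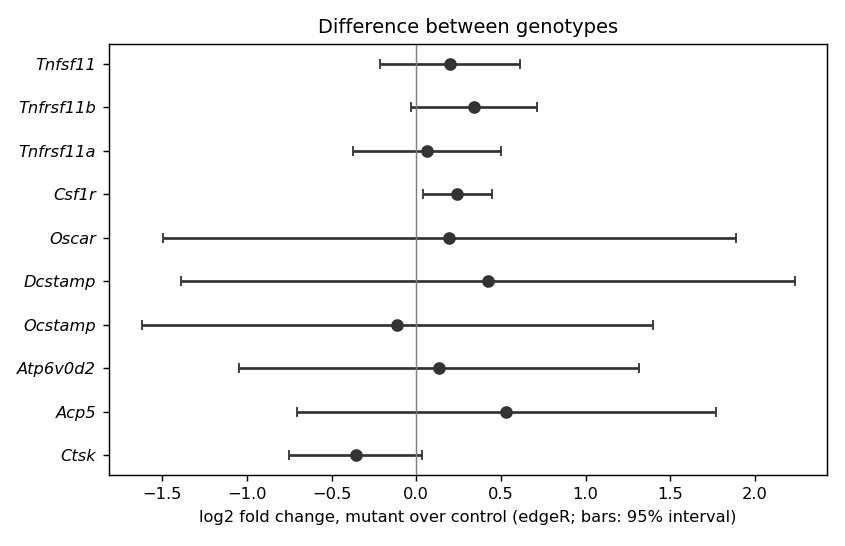
Log2 fold change of mutant over control for each gene from edgeR, with a 95% interval derived from its test statistic. The interval of Csf1r (0.040 to 0.44) lies above 0 before adjustment, and the intervals of Oscar, Dcstamp, Ocstamp, Atp6v0d2 and Acp5 are the widest.

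Compared per kilobase of exon, Ctsk was the most abundant of the 10 genes, at 84.7 to 154 CPM per kb, and its range lay above that of every other gene. Acp5 (8.17 to 45.4 CPM per kb) and Csf1r (15.1 to 20.5) came next and overlapped each other. Tnfrsf11b (3.55 to 6.14) lay below both and above Tnfsf11 (1.68 to 2.69). Tnfsf11 overlapped Atp6v0d2 (0.499 to 2.27), and Tnfrsf11a, Oscar, Dcstamp and Ocstamp followed in that order, each overlapping its neighbour.

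The variation between animals of one genotype was unequal among the 10 genes. The biological coefficient of variation that edgeR estimated was 0.617 for Oscar, 0.678 for Dcstamp, 0.563 for Ocstamp, 0.447 for Atp6v0d2 and 0.463 for Acp5, against a median of 0.119 over all genes tested. These 5 values were above those of 99.0 to 99.8% of the genes tested. For Tnfsf11, Tnfrsf11b, Tnfrsf11a and Ctsk the coefficient was 0.148 to 0.171, and for Csf1r it was 0.0912. The intervals of the first 5 genes thus leave room for a change of more than 2-fold in either direction, apart from a fall of Acp5 by as much.

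In these 5 genes control 1 and mutant 2 were the 2 highest libraries, which held for 5.25% of all genes tested. This order was noticed in the values and is given as a description. It was shared by 4 of the 19 genes of the resorption machinery, Mmp9, Siglec15, Car2 and Atp6v1h, and by none of the 25 genes of the RANK and CSF1 pathway or the 15 monocyte and macrophage genes. Mmp9, the gelatinase of osteoclasts, had 229, 57.3 and 40.3 CPM in control animals and 51.3, 163 and 89.9 CPM in mutant animals (log2 fold change -0.10, standard error 0.59, adjusted p = 0.983 from edgeR). Siglec15, an osteoclast surface lectin, had 18, 0 and 2 counts in control animals and 6, 19 and 9 in mutant animals, too few to be tested.

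Markers of other cells moved with the same libraries. Of 7 neutrophil genes, 5 were highest in control 1 and mutant 2, and the sum of the 7, led by S100a9 and S100a8, was 4.73 to 33.1 CPM in control animals and 12.5 to 73.9 CPM in mutant animals, with Elane at 0 in 2 libraries. Of 10 osteoblast genes 4 shared the order (Bglap, Phex, Sp7 and Spp1), and of 5 hypertrophic chondrocyte genes 1 did, Mmp13. None of the 8 chondrocyte, 6 muscle, 5 tendon, 6 endothelial, 6 erythroid or 5 mast cell genes did. The part of marrow and bone in the osteoclast genes of these libraries was not tested.

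**Figure D4:**
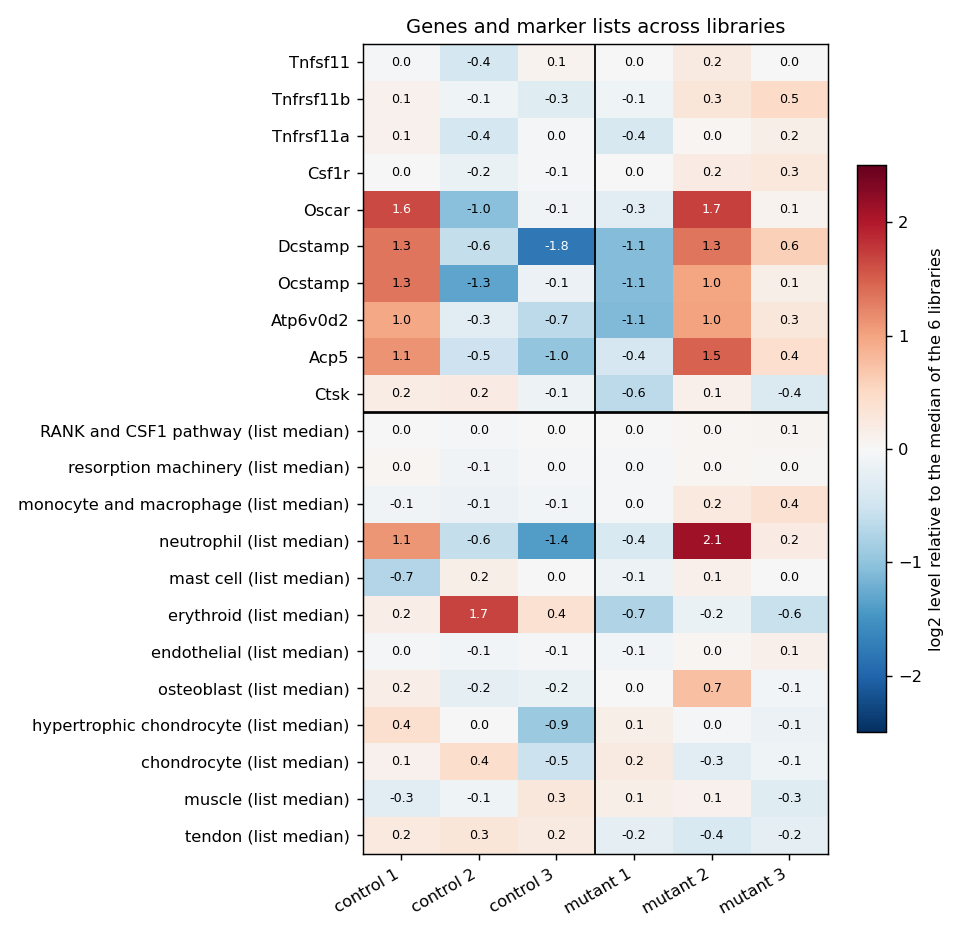
Log2 level relative to the median of the 6 libraries for each of the 10 genes (above the line) and, below it, the median of this value over the tested genes of each list. Oscar, Dcstamp, Ocstamp, Atp6v0d2, Acp5 and the neutrophil list are high in control 1 and mutant 2, while the erythroid list is highest in control 2 and the tendon list is lower in all 3 mutants.

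Control 1 and mutant 2 were the 2 highest libraries of these 5 genes. Leaving out control 1 thus had to raise the fold changes of these genes and leaving out mutant 2 to lower them. Only the size of each shift is a result. Acp5 had a log2 fold change of 1.44 without control 1 and -0.096 without mutant 2, and Dcstamp of 1.92 and -0.21. Oscar moved between 1.46 and -0.75, Atp6v0d2 between 0.79 and -0.41, and Ocstamp between 0.94 and -0.72 in the same fits. With both libraries left out, an alternative chosen after the values were seen, Acp5 had 0.81 and Ctsk -0.55. Dcstamp had 1.29 (standard error 0.78), Oscar 0.51, Ocstamp 0.32 and Atp6v0d2 0.24. In that fit edgeR called 0 of the 10 genes, beside 3 of 16960 tested. At an unadjusted p under 0.05 there were 2 of the 10, Acp5 and Ctsk, beside 1029 of 16960. Without mutant 3, the library with Xist, 0 of the 10 were called as well, beside 6 of 17253 genes tested. In this fit 0 of the 10 had an unadjusted p under 0.05, beside 1267 of 17253. Without control 1 edgeR again called 0, beside 13 of 17240 genes tested. In this fit 4 had an unadjusted p under 0.05, beside 1682 of 17240. They were Tnfrsf11b, Csf1r, Dcstamp and Acp5 (adjusted p = 0.375 from edgeR for Acp5, the lowest of the 4).

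The pathway around RANK and CSF1 was described with 25 genes, among them the growth factors Csf1 and Il34, the adaptor Traf6, NF-kB subunits and the transcription factors Nfatc1, Fos, Mitf and Spi1. All 25 were tested and 0 passed the threshold with edgeR, DESeq2 or limma-voom (1 each at an unadjusted p under 0.05), with 19 fold changes above 0 and 6 below and a median log2 fold change of 0.14. The lowest p was that of Map3k14, the kinase that starts the alternative NF-kB pathway downstream of RANK. It had 16.9, 13.9 and 15.5 CPM in control animals and 19.6, 19.2 and 18.4 CPM in mutant animals, without overlap (log2 fold change 0.31, standard error 0.10, adjusted p = 0.437 from edgeR), and overlaps another gene on its own strand. Nfatc1, the master transcription factor of osteoclasts, lay lower in every mutant, at 98.0 to 104.7 CPM against 109 to 121 CPM (log2 fold change -0.15, standard error 0.08, adjusted p = 0.640 from edgeR). Nfatc1 varied by 1.23 times over the 6 libraries and did not share the order of Oscar, Dcstamp and Ocstamp. The part of other cells in its level was not tested. In the list 5 genes had no overlap between the groups, 3 higher and 2 lower, beside 14.4% of all genes tested (6.83% higher and 7.62% lower).

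Of 19 genes of the resorption machinery, which covers proton pump subunits, chloride and bicarbonate carriers, integrins and proteases, 18 were tested and 0 were called by edgeR, DESeq2 or limma-voom (0 at an unadjusted p under 0.05 in each), with a median log2 fold change of 0.053. The lowest p were those of the proton pump subunits Atp6v1c1 (0.17, standard error 0.09, adjusted p = 0.652 from edgeR) and Atp6v1b2 (0.10, standard error 0.08) and of the chloride carrier Clcn7 (0.10, standard error 0.08). These genes act in the lysosomes of many cell types, and each varied by at most 1.23 times over the 6 libraries. The most abundant of the list were Mmp14 and Cd44, which are not particular to osteoclasts.

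Monocytes and macrophages carry Csf1r and include the precursors of osteoclasts. All 15 of their genes had a fold change above 0, with a median log2 fold change of 0.29, and 0 passed the threshold with edgeR (6 at an unadjusted p under 0.05) or limma-voom (6), while DESeq2 called 2, Itgam and Mpeg1. Over all genes tested 8.64% had an unadjusted p under 0.05 with edgeR, and DESeq2 called 1.15%. The edgeR count of 6 became 12 without mutant 1, beside 1334 of 17259 genes tested. It became 4 without control 1, mutant 2 or mutant 3, beside 1682 of 17240, 971 of 17231 and 1267 of 17253. With the replicate block DESeq2 called 0 of the 15 (adjusted p = 0.072 for Itgam and 0.0856 for Mpeg1), beside 89 of 16813 genes tested. Itgam, which encodes CD11b, had 8.45, 7.01 and 8.88 CPM in control animals and 11.2, 15.7 and 14.7 CPM in mutant animals (log2 fold change 0.78, standard error 0.16, adjusted p = 0.135 from edgeR and 0.00244 from DESeq2), and shares exon sequence with a gene on its own strand. Mpeg1, the perforin of macrophages, had 13.3, 8.64 and 8.84 CPM in control animals and 13.4, 20.9 and 21.8 CPM in mutant animals (log2 fold change 0.87, standard error 0.22, adjusted p = 0.225 from edgeR and 0.00759 from DESeq2). Lyz2, the lysozyme of myeloid cells, had 41.3, 26.5 and 24.2 CPM in control animals and 40.2, 82.4 and 59.8 CPM in mutant animals (log2 fold change 0.99, standard error 0.26, adjusted p = 0.265 from edgeR). Mutants 2 and 3 lay above every control in these 3 genes, and mutant 1 lay close to control 1 in Mpeg1 and Lyz2.

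The sum over the 15 genes, led by Mrc1 and C1qc, was 460 to 478 CPM in control animals and 461, 606 and 646 CPM in mutant animals. The Csf1r levels of mutants 2 and 3 stood beside the highest of these sums. In 4 of the 15 genes every mutant lay above every control, in a comparison in which 6.83% of all genes did so. Neutrophils share Itgam and Lyz2 with these cells, and their own markers did not separate the groups, with 6 of 6 tested fold changes above 0 and 0 called.

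**Figure D5:**
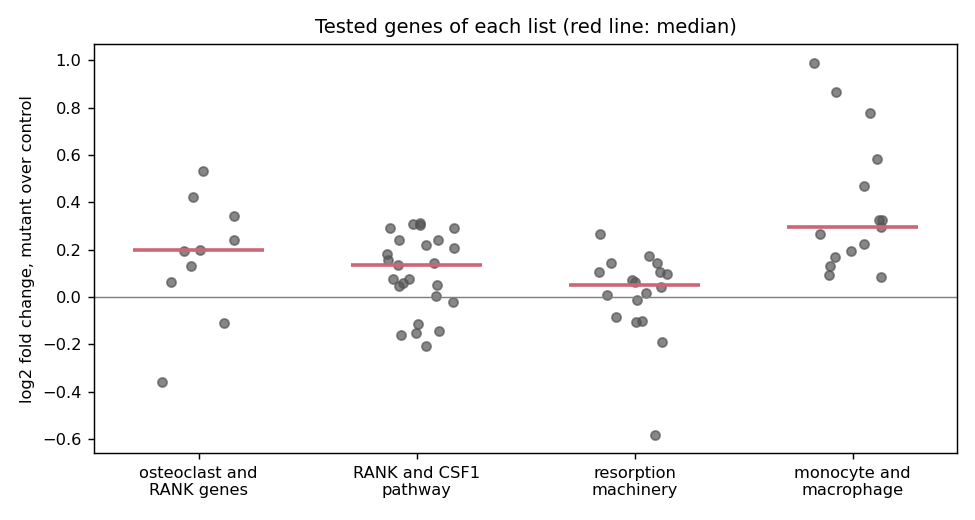
Log2 fold change of mutant over control from edgeR for the tested genes of each list (points), with the median as a red line. All 15 monocyte and macrophage genes lie above 0, with Lyz2 the highest at 0.99, while the resorption machinery is centred near 0.053.

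Other tissues also differed between the libraries. The 5 tendon genes together had 2990 to 3285 CPM in control animals and 2002 to 2337 CPM in mutant animals. Of the most abundant 2, Fmod, a matrix protein of tendon, lay lower in every mutant (log2 fold change -0.76, adjusted p = 0.0602 from edgeR), while Thbs4 overlapped between the groups (0.017). Tnmd, the marker of tendon cells, was called (log2 fold change -0.81, standard error 0.12, adjusted p = 0.0374 from edgeR). DESeq2 called it without and with the replicate block (adjusted p = 2.23e-08 and 1.33e-05), and so did limma-voom (0.0466). In edgeR the call was lost in 5 of the 6 fits with a single library left out (adjusted p 0.0372 to 0.211 over the 6). It was also lost in edgeR with the replicate block (0.19) and with control 1 and mutant 2 left out (0.377). The 6 erythroid genes, led by Hbb-bs and Hba-a1, had 544 to 1581 CPM in control animals, with control 2 the highest, and 288 to 426 CPM in mutant animals. Of these genes edgeR called 0 (lowest adjusted p = 0.112), and 5 had an unadjusted p under 0.05, beside 8.64% of all genes tested. In 5 of the 6 every mutant lay below every control, beside 7.62% of all genes tested.

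The summed osteoblast genes were nearly all Col1a1, which overlapped between the groups. Of the 10 genes of that list 9 had a fold change above 0, with a median log2 fold change of 0.38, and edgeR called 0 (3 at an unadjusted p under 0.05). Dmp1, a matrix protein of late osteoblasts and osteocytes, had 6.75 to 82.8 CPM in control animals and 84.4 to 198 CPM in mutant animals, without overlap (log2 fold change 1.75, standard error 0.69, adjusted p = 0.522 from edgeR). Mutant 1, at 84.4 CPM, lay just above control 1, at 82.8 CPM. Ibsp, which encodes bone sialoprotein, overlapped (log2 fold change 1.32, standard error 0.57, adjusted p = 0.557 from edgeR), and Runx2, the transcription factor of the lineage, lay lower in every mutant (-0.36, standard error 0.16, adjusted p = 0.563 from edgeR). In the list 2 of the 10 genes, Dmp1 and Runx2, had no overlap between the groups, beside 14.4% of all genes tested.

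The summed levels of hypertrophic chondrocyte genes, led by Col10a1 and Pth1r (167 to 440 and 283 to 352 CPM), of mast cell genes, led by Tpsb2 and Cpa3 (136 to 238 and 194 to 246 CPM), and of endothelial genes, led by Cdh5 and Pecam1 (757 to 778 and 751 to 848 CPM), overlapped between the groups. Single genes did not all overlap. The endothelial genes Kdr (125 to 128 and 147 to 154 CPM, adjusted p = 0.324 from edgeR) and Emcn (33.9 to 39.8 and 43.4 to 46.1 CPM, adjusted p = 0.323 from edgeR) and the mast cell gene Kit (15.4 to 19.5 and 19.9 to 20.2 CPM, adjusted p = 0.668 from edgeR) were higher in every mutant. Of all genes tested, 6.83% were higher in every mutant. The other endothelial genes overlapped, with log2 fold changes of 0.055 for Pecam1, 0.084 for Tek, -0.032 for Cdh5 and -0.27 for Cldn5. The other mast cell genes overlapped as well. The part of these tissues in the values of Csf1r and Ctsk was not tested.

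The genes most like the 8 genes of the osteoclast lineage, without the ligand and its decoy, were looked for among 14437 tested genes of at least 1 CPM by Pearson's r with the mean standardized log2 level over the 6 libraries. Psma1, a proteasome subunit, came first (r = 0.99), followed by Orc4 (r = 0.99), Zfp119b, Tmem167b and Plrg1 (r = 0.98 each). With 6 points and this many genes such values are a description only. Psma1 kept the order of the libraries while varying by 1.08 times, from 66.8 to 72.2 CPM, and the other 4 varied by 1.10 to 1.62 times, far less than the 5.55 times of Acp5.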

How the data were processed

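Growth plate cartilage was measured by poly(A) RNA sequencing in 3 control and 3 mutant libraries. Per the submitters' processing notes, the authors trimmed reads with Trim Galore 0.6.4, mapped them to GRCm38 with STAR 2.6.1d and counted them per gene over exons with featureCounts 1.6.4. Per the file headers strand was ignored. The deposited values are raw counts. The files also give the total exon length of each gene, used for levels per kilobase.

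From these, edgeR 4.0.16 (R 4.3.3) fitted genotype alone by its quasi-likelihood test after TMM scaling, on genes passing filterByExpr (at least 10 counts, 15 in total), since litters, a term of the study's model, are not named in the labels. Adjustment for 16813 genes followed Benjamini and Hochberg. Levels are CPM from total counts and TMM factors. Single genes were also compared with an exact two-sided permutation test of CPM. The alternatives were DESeq2 1.42.0, limma-voom (limma 3.58.1), upper-quartile factors, other low-count filters, the replicate number as a block and each library left out. Scripts were tested on simulated data. No pair of libraries was a repeat, since a chi-square test of their counts at 15449 genes gave 12.2 to 48.8 per degree of freedom. Promoter windows came from RefSeq (GRCm38.p6) and overlaps from GENCODE release M21 of the same build. Figures used matplotlib 3.10.9.

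The members, lists and motifs were chosen with earlier results of these data known. Beside the 10 members, the text names from 3 lists the 3 genes of lowest p (1 of these is not reported here), called genes, the 2 most abundant genes of each marker list and the 5 genes most alike. Mmp9, Siglec15, Tnmd, Dmp1, Runx2, Kdr, Emcn, Kit and the genes sharing the order of the libraries were named after their values were seen. P-values measure the spread between these libraries only.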

Additional observations from a re-analysis of the deposited data

How the results depend on the processing

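In each alternative run 0 of the 10 genes, 0 of the RANK and CSF1 pathway and 0 of the resorption machinery passed the threshold. The monocyte and macrophage list had 2 calls with DESeq2 and 3 without the low-count filter (Itgam, Mpeg1 and Lyz2), against 0, and the replicate block in DESeq2 took away both of its calls. Over all genes the calls numbered 194 with DESeq2, 19 with limma-voom, 259 without the filter, 3 with the replicate block in edgeR, 89 with the replicate block in DESeq2, 3 with control 1 and mutant 2 both left out and 3 to 17 with a single library left out, against 32. The cause of these differences was not tested. Of 60 fold changes of the 10 genes with a single library left out 13 changed sign, none of them called, and of 68 under other settings 3 did. Ocstamp was 0.12 with limma-voom, 0.085 with the replicate block in edgeR, 0.12 with it in DESeq2 and 0.32 with control 1 and mutant 2 left out. Mmp9 was 0.17, 0.28, 0.29 and 0.54 in the same fits. With single libraries left out the range was 0.058 (without control 2) to 0.31 (without control 3) for Tnfsf11, 0.20 (without mutant 3) to 0.49 (without mutant 1) for Tnfrsf11b, -0.59 (without mutant 2) to -0.20 (without mutant 1) for Ctsk, 0.19 to 0.32 for Csf1r, -0.079 to 0.21 for Tnfrsf11a, -0.75 to 1.46 for Oscar, -0.21 to 1.92 for Dcstamp, -0.72 to 0.94 for Ocstamp, -0.41 to 0.79 for Atp6v0d2, -0.096 to 1.44 for Acp5 and -0.62 to 1.05 for Mmp9. With at least 10 counts required in every library 8 of the 10 genes could be tested. The deviations of same-numbered libraries from their group means correlated at -0.13, 0.0048 and -0.10. With 3 libraries a group these values cannot show whether same-numbered libraries share a litter. The block changed no call of the 10 genes, while that of Tnmd was lost in edgeR and kept in DESeq2. Oscar, Dcstamp and Ocstamp had 4 to 102 counts a library.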
